A study of Mus musculus with 12 samples.

Results

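Mucins, trefoil factors and the glycosyltransferases that build the sugar chains of mucins and other glycoproteins were compared between control and knockout (KO) tumorspheres of the mouse gastric cancer line S1. Members were the protein-coding genes whose symbols are *Muc*, *Tff*, *Gkn*, *Galnt*, *Gcnt*, *Fut*, *St3gal*, *B3gnt*, *B4galt* or *Mgat* with a number, or begin with *St6gal*, which includes *St6galnac*. Of 13983 protein-coding genes and 18926 genes in all, 59 met this rule, and all 59 passed the filter on low counts. They were 3 gel-forming mucins (*Muc2*, *Muc5ac*, *Muc5b*), 3 membrane mucins (*Muc1*, *Muc4*, *Muc13*), 3 trefoil factors (*Tff1*, *Tff2*, *Tff3*) and 50 glycosyltransferases. *Muc6* and the gastrokines were not analysed here. Each gene had at least 1 count in every library, so a gene without reads in any 1 library could not be seen.

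S1 came from a gastric cancer of a ChetPS mouse, which has *Smad4* F/F and *Trp53* F/F with 1 floxed allele of *Cdh1*, and the cells of all 4 groups shared this origin and stable Cas9. KO cells had received lentiviral guide RNAs against *Rasa1*, *Nf2* or both, and controls a non-targeting guide or the guide sequence of the unmodified vector. KO cells were antibiotic-selected pools. RASA1 is a RAS GTPase-activating protein and NF2 an upstream activator of the Hippo kinases. rRNA-depleted total RNA was sequenced from 12 libraries, 3 per group, whose cells are monolayer cells by the labels and tumorspheres by the protocol and the study. The study calls them technical replications, so p-values measure the spread between libraries, and fewer cells of a type cannot be told apart from less RNA per cell.

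The groups followed the labels of the samples, and the names of the deposited tables exchange 2 of them: the libraries labelled *Rasa1*-KO are named there as double-KO and those labelled double-KO as *Rasa1*-KO. *Nf2* mRNA was at 11.6 to 12.1 CPM (the usual CPM unit of edgeR, counts scaled to the TMM-normalized library size) in labelled *Rasa1*-KO, at 13.2 to 14.3 in *Nf2*-KO, at 56.4 to 62.6 in those labelled double-KO and at 55.4 to 61 in control. *Nf2* was thus low in *Nf2*-KO and in labelled *Rasa1*-KO, and at the control level in those labelled double-KO. *Rasa1* was at 60.5 to 78.5 CPM in control, 30.4 to 34.5 in labelled *Rasa1*-KO, 97.2 to 101 in *Nf2*-KO and 17.7 to 23.3 in labelled double-KO. Of the 2 groups with exchanged names, both thus had *Rasa1* below control, and only labelled *Rasa1*-KO had low *Nf2*. This is the pattern of the deposited names, by which labelled *Rasa1*-KO is the double-KO and labelled double-KO the *Rasa1*-KO. Which name is right was not tested. Exchanging both labels exchanges every value given below for these 2 groups. Total counts ran from 43818139 to 96674463 per library. The control library without a number (called control 0 here) lay apart from controls 1 and 2: 16 of 59 members were at under 0.5 times the level of both others and 0 at over 2 times it. Labelled double-KO library 1 lay apart in the same sense for 7 members. Values without both are given beside several results below.

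Gel-forming mucins are secreted and polymerize into the mucus layer, membrane mucins stand on the apical surface, and trefoil factors are small secreted peptides that act with mucus in epithelial repair. In the stomach, surface pit cells make *Muc5ac* and *Tff1*, and neck and gland cells make *Tff2*, whereas *Muc2* and *Tff3* mark intestinal goblet cells. GALNT enzymes add the first GalNAc to serine or threonine, GCNT enzymes branch the O-glycan, B4GALT and B3GNT enzymes extend it, and fucosyl- and sialyltransferases cap it. MGAT enzymes set the branches of N-glycans.

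Levels between genes were compared as FPKM, which corrects for transcript length, in the 3 control libraries. *St6gal1*, which adds α2,6-linked sialic acid to N-glycans, was the glycosyltransferase with the highest mean at 60 ± 3.91 FPKM (SD, n = 3). *Gcnt1*, the core 2 branching enzyme, followed with 54.4 ± 3.74 and *Galnt2* with 49.8 ± 8.39 FPKM, and these neighbours did not differ beyond their spread. *Muc13* (36.1 ± 22) and *Muc1* (14.6 ± 6.63 FPKM) led the mucins, with the large SDs set by control 0, and *Muc5b* was at 9.6 ± 6.63 FPKM. The pit cell mucin *Muc5ac* (0.549 ± 0.193), the goblet mucin *Muc2* (0.177 ± 0.148) and *Muc4* (0.501 ± 0.431 FPKM) were low. All 3 trefoil factors were below 1 FPKM on average, *Tff1* at 0.951 ± 0.648, *Tff3* at 0.877 ± 0.749 and *Tff2* at 0.798 ± 0.601. Within families the leading members were *Galnt2*, *Gcnt1*, *B3gnt3*, *B4galt1*, *Fut8*, *St6gal1* and *Mgat3*.

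**Figure D1:**
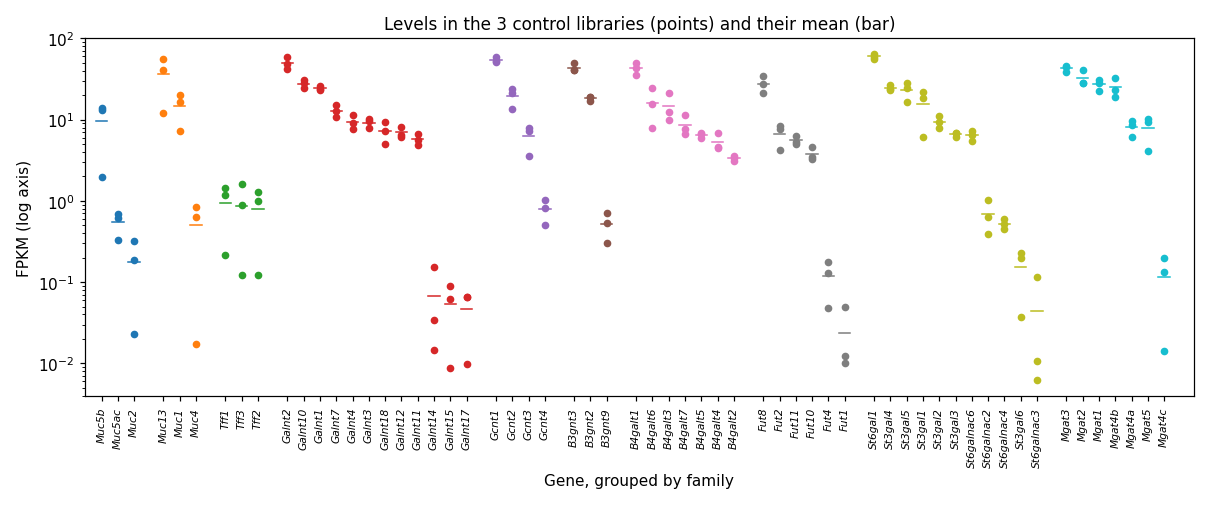
FPKM (log axis) of the 59 members in the 3 control libraries (points) with their mean (bar), grouped by family and ordered by mean within it. *St6gal1*, *Gcnt1* and *Galnt2* stand highest among the enzymes with means of 60, 54.4 and 49.8 FPKM, and the 3 trefoil factors lie below 1 FPKM on average.

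Over the 4 groups, 39 of 59 members (66.1%) differed by the F test of edgeR at an adjusted p under 0.05, against 45.9% of the 18053 genes tested. In the libraries labelled *Rasa1*-KO against control, 12 members rose (background 19.6% of all genes) and 19 fell (22.1%). *Nf2*-KO had 9 members that rose (20.4%) and 24 that fell (22.1%). Those labelled double-KO had 7 that rose (3.98%) and 2 that fell (2.42%). The rule of the study was a fold of at least 3 with a raw p under 0.05, there on DESeq2 values and here applied to edgeR values. By it these were 10 members in labelled *Rasa1*-KO (9.26% of all genes), 13 in *Nf2*-KO (11.4%) and 5 in labelled double-KO (2.02%). The 3 comparisons share the control libraries. Libraries did not overlap with control for 31 of 59 members in labelled *Rasa1*-KO (46.8% of all genes), 38 in *Nf2*-KO (46.8%) and 13 in labelled double-KO (18.4%). Between labelled *Rasa1*-KO and *Nf2*-KO 39.8% of all genes did not overlap. A lack of overlap, as given for single genes below, was thus common among all genes. Of the members, 28 of 59 were called in both labelled *Rasa1*-KO and *Nf2*-KO (33.3% of all genes), and 22 of 59 in no comparison with control (48.5%). The median log2 fold change over the members was -0.14, -0.39 and 0.07 in the order given, and over all genes tested -0.08, -0.07 and -0.04. Without control 0 and labelled double-KO library 1, the counts were 39 of 59 members in labelled *Rasa1*-KO (65.8% of all genes), 48 in *Nf2*-KO (66.8%) and 24 in labelled double-KO (29.8%).

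**Figure D2:**
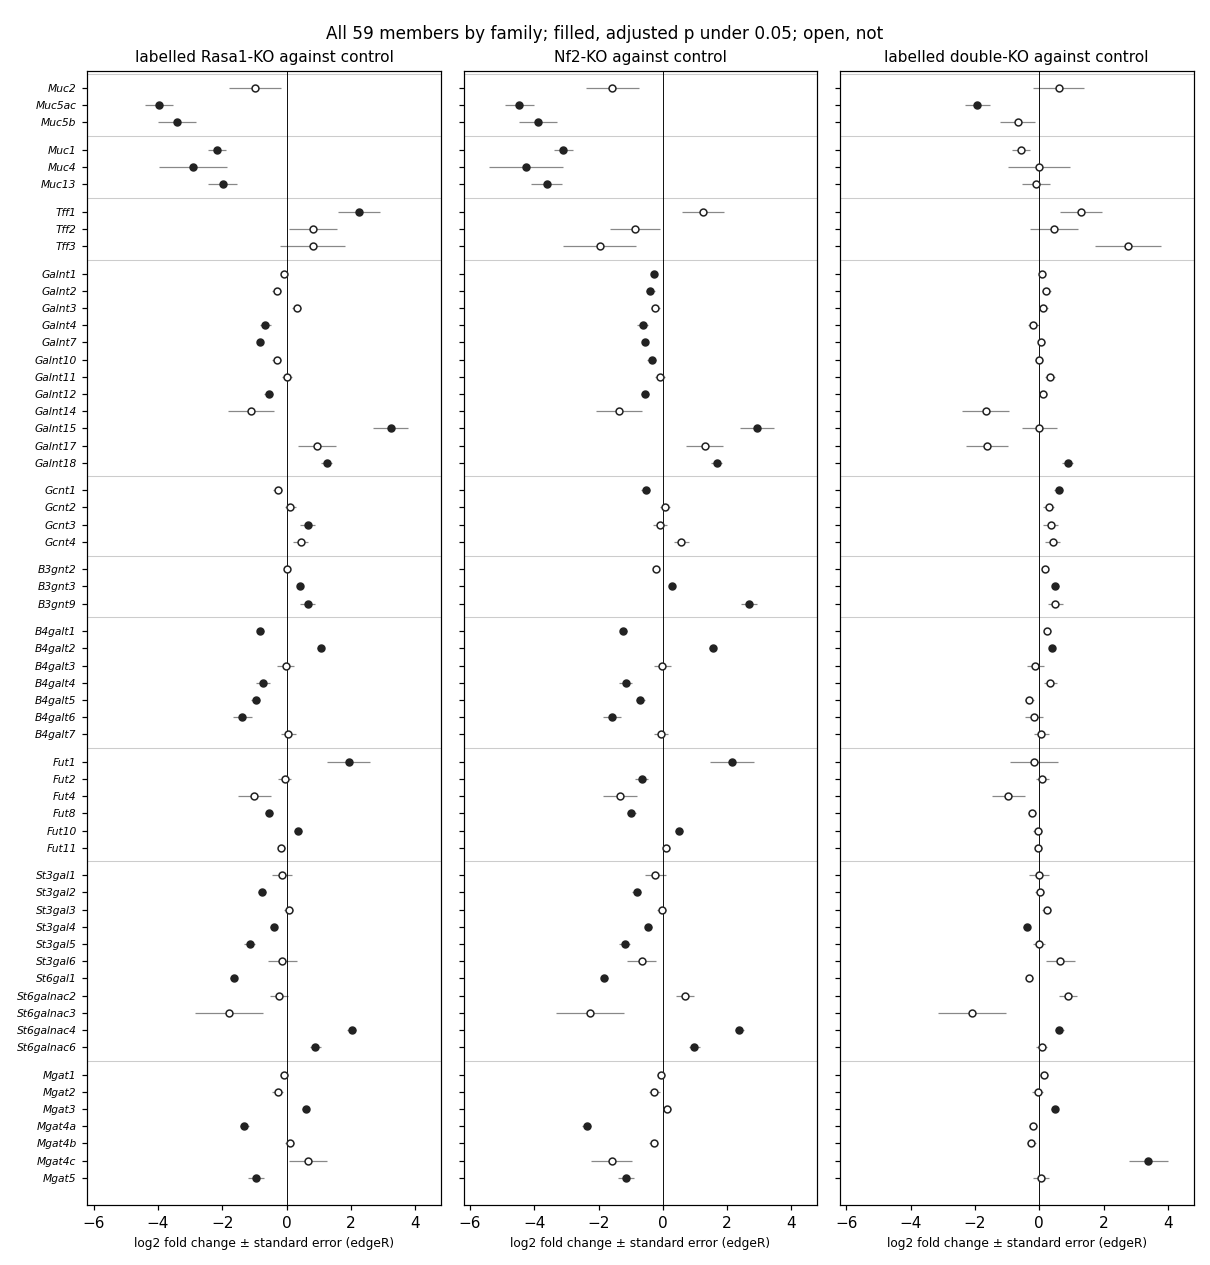
Log2 fold change against control with its standard error (horizontal bar) for all 59 members, by family, in labelled *Rasa1*-KO (left), in *Nf2*-KO (middle) and in those labelled double-KO (right). Filled points have an adjusted p under 0.05 (31, 33 and 9 members), and 5 of the 6 mucins are filled and below 0 in the left and middle panels.

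Mucin mRNAs were lower in *Nf2*-KO and in labelled *Rasa1*-KO than in control. In each, 5 of 6 mucins fell (22.1% of all genes) and none rose, with *Muc2* as the one that was not called. The median log2 fold change of the 6 was -3.76 in *Nf2*-KO and -2.53 in labelled *Rasa1*-KO. In the libraries labelled double-KO 1 of 6 fell (2.42% of all genes), *Muc5ac*, and the median was -0.34. Without both libraries that lay apart, 6 of 6 fell in *Nf2*-KO, 6 of 6 in labelled *Rasa1*-KO and 3 of 6 in labelled double-KO. In that fit 66.8%, 65.8% and 29.8% of all genes were called in either direction.

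*Muc5ac* (chr7:141788958-141819227, GRCm38), the surface pit cell mucin, was at 3.9 CPM in control 0 and at 7 and 7.4 in controls 1 and 2. It was at 0.452, 0.316 and 0.398 CPM in labelled *Rasa1*-KO, and at 0.118, 0.456 and 0.244 in *Nf2*-KO. The libraries labelled double-KO had 2.08, 1.35 and 1.34 CPM. Every KO library was thus below every control library, and those labelled double-KO lay between the control and the other KO libraries without overlap. The log2 fold change was -4.47 ± 0.45 (SE; adjusted p = 1.4e-05) in *Nf2*-KO, -3.97 ± 0.44 (4e-05) in labelled *Rasa1*-KO and -1.93 ± 0.39 (0.014) in labelled double-KO. Without *Nf2*-KO library 2 the first was -5.06. The call in labelled double-KO was lost without control 1 (adjusted p = 0.053) and without labelled double-KO library 2 (0.079) or 3 (0.078).

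*Muc5b* (chr7:141839059-141873089), the gel-forming mucin with the highest control level, lies beside *Muc5ac* and *Muc2* in one cluster. Its CPM were 32.3, 204 and 205 in controls 0, 1 and 2, and 13.9, 17.1 and 10.5 in labelled *Rasa1*-KO. *Nf2*-KO had 12.2, 9 and 8.42 CPM, and the libraries labelled double-KO 49.8, 116 and 110. Even the low control 0 was above every *Nf2*-KO and labelled *Rasa1*-KO library. *Muc5b* fell, with a log2 fold change of -3.89 ± 0.6 in *Nf2*-KO (adjusted p = 0.00034) and -3.41 ± 0.59 in labelled *Rasa1*-KO (0.00087). Labelled double-KO overlapped with control (-0.67 ± 0.54, adjusted p = 0.52). *Muc2* (chr7:141690340-141754691), the goblet cell mucin, had 0.181, 1.36 and 2.18 CPM in control, 0.477, 0.9 and 0.488 in labelled *Rasa1*-KO, 0.435, 0.319 and 0.476 in *Nf2*-KO and 0.339, 2.9 and 2.38 in labelled double-KO. All 3 KO groups overlapped with control for *Muc2* (adjusted p = 0.14 for *Nf2*-KO, 0.35 for labelled *Rasa1*-KO, 0.71 for labelled double-KO), and control 0 was the lowest library of all. Without both libraries that lay apart, its log2 fold change was -2.09 ± 0.33 in *Nf2*-KO and -1.49 ± 0.32 in labelled *Rasa1*-KO.

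*Muc13* (chr16:33794037-33819929), a membrane mucin of the gut surface, had the highest level per length of the mucins. Its CPM were 36.6, 158 and 113 in controls 0, 1 and 2 and 26.1, 24.3 and 26.6 in labelled *Rasa1*-KO. In *Nf2*-KO they were 9.1, 8.21 and 7.65, and in labelled double-KO 50.8, 117 and 119. *Nf2*-KO was below labelled *Rasa1*-KO, which was below control, without overlap. The log2 fold change was -3.62 ± 0.47 (adjusted p = 0.0001) in *Nf2*-KO and -1.99 ± 0.44 (0.0042) in labelled *Rasa1*-KO. *Muc1* (chr3:89229056-89233381), a membrane mucin with a signalling tail, had 17.9, 38.6 and 44.8 CPM in control and 8.14, 7.87 and 6.75 in labelled *Rasa1*-KO. It had 4.7, 3.19 and 3.91 CPM in *Nf2*-KO and 24.6, 21.9 and 21.5 in labelled double-KO. *Nf2*-KO was again below labelled *Rasa1*-KO and this below control, with log2 fold changes of -3.1 ± 0.29 (8.4e-06), -2.15 ± 0.28 (0.00012) and -0.57 ± 0.27 (adjusted p = 0.25) in *Nf2*-KO, labelled *Rasa1*-KO and labelled double-KO.

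*Muc4* (chr16:32735886-32782391), a large membrane mucin that binds ERBB2, showed how far control 0 could stand from the rest. It was at 0.223 CPM there and at 7.54 and 9.44 in controls 1 and 2. Labelled *Rasa1*-KO had 0.866, 0.73 and 0.667 CPM, *Nf2*-KO 0.341, 0.285 and 0.255, and labelled double-KO 0.656, 7.92 and 8.56. Control 0 was thus below all 6 *Nf2*-KO and labelled *Rasa1*-KO libraries, so both groups overlapped with control, and labelled double-KO library 1 lay among them. The log2 fold change was -4.27 ± 1.15 (adjusted p = 0.011) in *Nf2*-KO and -2.92 ± 1.06 (0.045) in labelled *Rasa1*-KO. The latter call was lost in 10 of 12 fits that left out 1 library, those without control 0 and without labelled double-KO library 1 being the exceptions, with adjusted p from 0.056 to 0.12. Without both, the changes were -4.84 ± 0.18 and -3.48 ± 0.17.

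**Figure D3:**
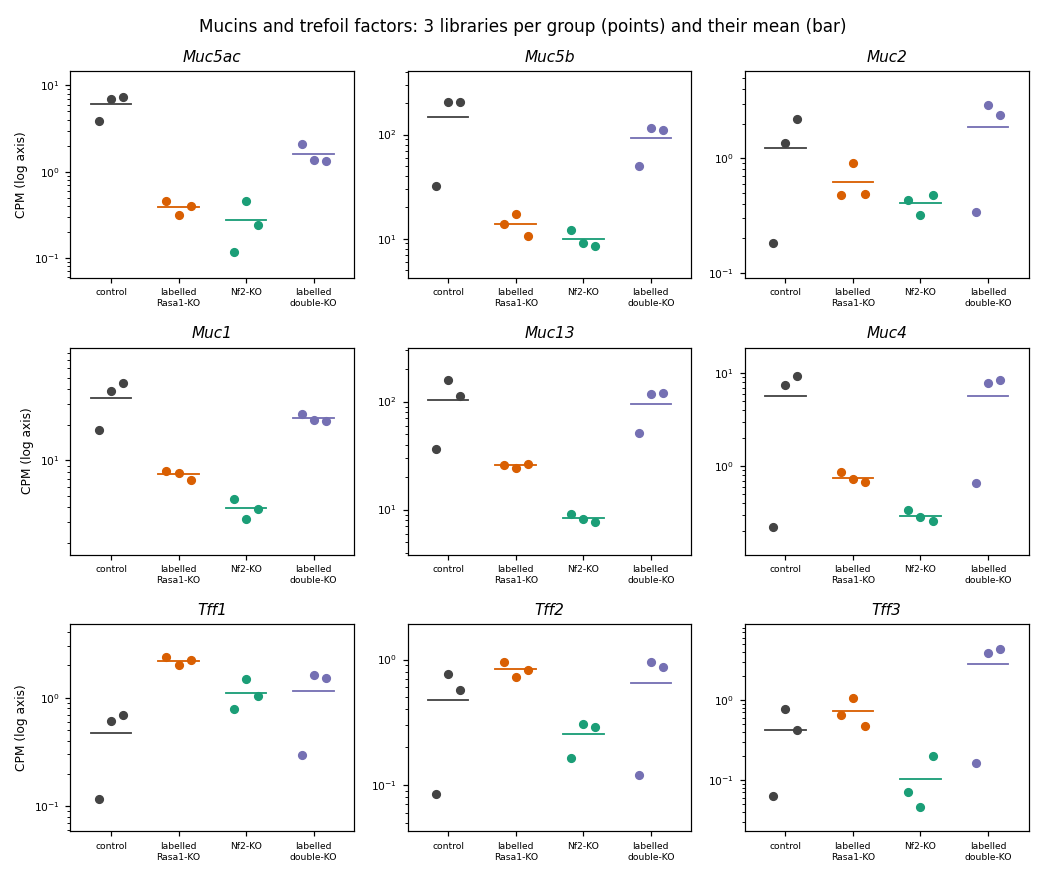
CPM (log axis) of the 6 mucins and 3 trefoil factors in each library (points, in order of library number) with the group mean (bar). Mucins lie low in *Nf2*-KO and labelled *Rasa1*-KO, from 0.118 CPM for *Muc5ac*, and the leftmost control and labelled double-KO points stand below their groups for *Muc5b*, *Muc13*, *Muc4*, *Muc2* and the trefoil factors.

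Promoters of 3 mucins that fell and of 1 enzyme that rose are shown, and each of these held a match. TEAD and AP-1 factors, which act with YAP downstream of NF2, bind short motifs that can be searched. Whether the motifs bear on the changes was not tested. The letters searched on both strands were GGAATG for TEAD and TGANTCA for AP-1, which do not overlap each other, in the 250 bases before and 50 after a gene start (RefSeq, GRCm38.p6). Capitals mark the matches.
*Muc1* (chr3:89228806-89229105, plus strand, TEAD letters): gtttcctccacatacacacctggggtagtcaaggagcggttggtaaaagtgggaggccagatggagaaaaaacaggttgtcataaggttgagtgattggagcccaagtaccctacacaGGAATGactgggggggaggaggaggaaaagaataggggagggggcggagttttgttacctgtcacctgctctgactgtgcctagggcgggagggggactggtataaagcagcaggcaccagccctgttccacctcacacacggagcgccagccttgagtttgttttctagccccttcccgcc
*Muc4* (chr16:32735636-32735935, plus strand, TEAD letters on the other strand): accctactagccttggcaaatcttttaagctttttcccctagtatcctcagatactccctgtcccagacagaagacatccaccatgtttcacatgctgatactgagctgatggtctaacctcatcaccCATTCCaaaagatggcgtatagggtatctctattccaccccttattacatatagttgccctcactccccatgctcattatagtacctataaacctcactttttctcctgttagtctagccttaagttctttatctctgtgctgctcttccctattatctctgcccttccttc
*Muc13* (chr16:33793787-33794086, plus strand, AP-1 letters): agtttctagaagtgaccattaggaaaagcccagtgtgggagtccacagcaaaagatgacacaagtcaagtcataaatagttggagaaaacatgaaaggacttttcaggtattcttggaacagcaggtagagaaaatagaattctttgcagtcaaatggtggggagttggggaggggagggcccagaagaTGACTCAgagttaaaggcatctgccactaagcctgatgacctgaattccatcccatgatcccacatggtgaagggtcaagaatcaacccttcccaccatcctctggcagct
*Galnt15* (chr14:32028853-32029152, plus strand, AP-1 letters): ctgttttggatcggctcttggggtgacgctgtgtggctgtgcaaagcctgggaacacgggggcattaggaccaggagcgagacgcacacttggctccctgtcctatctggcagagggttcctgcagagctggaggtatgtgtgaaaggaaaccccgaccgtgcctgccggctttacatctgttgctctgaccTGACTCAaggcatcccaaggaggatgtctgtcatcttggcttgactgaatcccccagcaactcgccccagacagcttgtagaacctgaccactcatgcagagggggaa
The TEAD letters began 132 bases before the start of *Muc1* and 122 before that of *Muc4*, and the AP-1 letters 61 before that of *Muc13* and 58 before the RefSeq start used for *Galnt15*, which lies inside the gene interval of the deposited tables. Of 16233 promoters of tested genes, 12.9% held the TEAD letters and 5.98% the AP-1 letters. Promoters were found for 39 members, with 58 starts, of which 11 held the TEAD and 7 the AP-1 letters. The other members, *Muc5ac* and *Muc5b* among them, had no promoter entry and were not searched. Counted by gene, 15.1% of 12666 genes with promoters held the TEAD letters and 7.11% the AP-1 letters. The TEAD letters lay at 11 members, of which 5 fell in at least 1 comparison with control (*Muc1*, *Muc4*, *Mgat5*, *Galnt10* and *Gcnt1*, the last of which rose in labelled double-KO) and 6 were not called in any (*B4galt7*, *Fut11*, *Galnt17*, *Mgat2*, *St3gal6* and *St6galnac3*). The AP-1 letters lay at 6 members, of which 3 fell (*Muc13*, *Mgat4a*, *St6gal1*), 1 rose (*Galnt15*) and 2 were not called (*Muc2*, *Gcnt4*). Of all genes tested, 48.5% were called in no comparison with control. A match does not show binding.

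Of the 3 trefoil factors, 1 rose in labelled *Rasa1*-KO (19.6% of all genes). In *Nf2*-KO edgeR called 0 of 3, with 0 at an unadjusted p under 0.05 and 0 called by DESeq2, and in labelled double-KO 0, 1 and 1. *Tff1* (chr17:31161395-31165060), the pit cell trefoil factor, had 0.117, 0.613 and 0.694 CPM in controls 0, 1 and 2. It had 2.37, 2.01 and 2.23 CPM in labelled *Rasa1*-KO, 0.788, 1.48 and 1.03 in *Nf2*-KO and 0.295, 1.63 and 1.53 in labelled double-KO. All libraries labelled *Rasa1*-KO and *Nf2*-KO were above all controls, and the change was called only in labelled *Rasa1*-KO (2.25 ± 0.66, adjusted p = 0.018). *Nf2*-KO had 1.25 ± 0.65 (0.14) and labelled double-KO 1.31 ± 0.65 (adjusted p = 0.28), and labelled *Rasa1*-KO against *Nf2*-KO gave 1 ± 0.62 (0.52), or 1 ± 0.22 (adjusted p = 0.0069) without both libraries that lay apart.

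*Tff2* (chr17:31141062-31144282), the mucous neck cell trefoil factor, had 0.085, 0.762 and 0.575 CPM in control, 0.954, 0.73 and 0.821 in labelled *Rasa1*-KO, 0.165, 0.308 and 0.29 in *Nf2*-KO and 0.12, 0.95 and 0.866 in labelled double-KO. *Tff3* (chr17:31125306-31129611), the goblet cell trefoil factor, had 0.0637, 0.776 and 0.417 CPM in control and 0.653, 1.05 and 0.475 in labelled *Rasa1*-KO. It had 0.0706, 0.0456 and 0.197 CPM in *Nf2*-KO and 0.164, 3.91 and 4.39 in labelled double-KO. Neither was called against control (lowest adjusted p = 0.37 for *Tff2* and 0.14 for *Tff3*), and control 0 and labelled double-KO library 1 were the lowest of their groups. Over the 4 groups *Tff3* differed by the F test (adjusted p = 0.017). Without both libraries, *Tff3* was at 2.77 ± 0.46 in labelled double-KO and -2.53 ± 0.52 in *Nf2*-KO, *Tff2* at -1.4 ± 0.33 in *Nf2*-KO, and *Tff1* at 0.76 ± 0.28 in *Nf2*-KO and 1.28 ± 0.29 in labelled double-KO, all 5 with an adjusted p under 0.05. In the same fit labelled *Rasa1*-KO was above *Nf2*-KO by 1.71 ± 0.29 for *Tff2* (adjusted p = 0.0013) and by 2.78 ± 0.47 for *Tff3* (0.0012). Counts behind these values were as low as 4 reads for *Tff3* and 8 for *Tff2* in a library.

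Among the 50 glycosyltransferases, 9 rose and 19 fell in *Nf2*-KO, 11 rose and 14 fell in labelled *Rasa1*-KO, and 7 rose and 1 fell in labelled double-KO. Of all genes, 20.4% rose and 22.1% fell in *Nf2*-KO, 19.6% and 22.1% in labelled *Rasa1*-KO, and 3.98% and 2.42% in labelled double-KO. The median log2 fold changes of the enzymes were -0.27, -0.11 and 0.08, against -0.07, -0.08 and -0.04 over all genes. Without both libraries that lay apart the counts were 12 and 27, 13 and 19, and 14 and 5. In that fit 66.8%, 65.8% and 29.8% of all genes were called, so these counts alone are not a result about the enzymes.

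Among the sialyltransferases, *St6gal1* had the largest called fall of the enzymes in labelled *Rasa1*-KO, and *St6galnac4* and *St6galnac6* rose. *St6gal1* (chr16:23224729-23360350) had 310, 264 and 236 CPM in control. It was at 88.1, 85.3 and 85.9 in labelled *Rasa1*-KO, at 76.2, 78.2 and 72.9 in *Nf2*-KO and at 235, 205 and 214 in labelled double-KO. All *Nf2*-KO and labelled *Rasa1*-KO libraries lay below every control library, without overlap. *St6gal1* fell, with a log2 fold change of -1.83 ± 0.11 in *Nf2*-KO (adjusted p = 3e-07) and -1.64 ± 0.11 in labelled *Rasa1*-KO (9.5e-07), and was at -0.31 ± 0.11 (0.12) in labelled double-KO. *St3gal5*, which makes the ganglioside GM3, had 42.4, 58 and 64.4 CPM in control, 20.6, 29.3 and 24.6 in labelled *Rasa1*-KO, 28.5, 22.9 and 20.9 in *Nf2*-KO and 58, 56.9 and 48.4 in labelled double-KO. It fell, with a log2 fold change of -1.19 ± 0.18 in *Nf2*-KO (adjusted p = 0.00033) and -1.15 ± 0.18 in labelled *Rasa1*-KO (0.00053). *St3gal4*, an α2,3-sialyltransferase that caps lactosamine chains, was at 56.2 to 67.4 CPM in control against 42.8 to 53.6 in the 9 KO libraries, with log2 fold changes of -0.46, -0.4 and -0.39 in *Nf2*-KO, labelled *Rasa1*-KO and labelled double-KO. The last call (adjusted p = 0.049) was lost in 9 of 12 fits without 1 library (0.083 to 0.23), all but those without control 0, control 2 or labelled double-KO library 1.

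*St6galnac4* (chr2:32587078-32599696), which sialylates the GalNAc of sialylated O-glycans, had 1.89, 2.44 and 1.88 CPM in control. It was at 7.99, 9.08 and 8.26 in labelled *Rasa1*-KO, at 10.4, 10.6 and 11.4 in *Nf2*-KO and at 3.36, 3.05 and 3.17 in labelled double-KO. The 4 groups did not overlap. *St6galnac4* rose in log2 terms by 2.38 ± 0.14 in *Nf2*-KO (adjusted p = 3.1e-07), by 2.03 ± 0.14 in labelled *Rasa1*-KO (1.4e-06) and by 0.62 ± 0.14 in labelled double-KO (0.022). The last call was lost without labelled double-KO library 2 (0.061) or 3 (0.075). Its neighbour *St6galnac6* (chr2:32599709-32620809) had 13.1 to 19.7 CPM in control, 29.7 to 31.1 in labelled *Rasa1*-KO, 30.2 to 35.3 in *Nf2*-KO and 13.6 to 21.3 in labelled double-KO, and rose by 0.98 ± 0.17 (0.00093) and 0.9 ± 0.17 (0.0018) in *Nf2*-KO and labelled *Rasa1*-KO. Of the 11 sialyltransferases, 2 rose and 4 fell in each of these groups, the others that fell in both being *St3gal2* and *St3gal4*. This was 54.5% of the family in each, against 42.5% of all genes in *Nf2*-KO and 41.7% in labelled *Rasa1*-KO.

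Of the 7 *Mgat* genes, 2 fell in *Nf2*-KO, and 2 fell and 1 rose in labelled *Rasa1*-KO. These were 28.6% and 42.9% of the family, below or near the 42.5% and 41.7% of all genes called there. *Mgat4a* (chr1:37439340-37541060), which starts a β1,4 branch, had 49.6, 64 and 68.6 CPM in control. It was at 24.8, 25.8 and 22.7 in labelled *Rasa1*-KO, at 12.4, 12.5 and 10.3 in *Nf2*-KO and at 50.6, 54.1 and 55.2 in labelled double-KO. The fall was -2.37 ± 0.14 on the log2 scale in *Nf2*-KO (adjusted p = 2.4e-07) and -1.31 ± 0.13 in labelled *Rasa1*-KO (1.9e-05), with no overlap between these groups and control. *Mgat5* (chr1:127204919-127488334), which starts the β1,6 branch, had 36.8, 78.4 and 83.1 CPM in controls 0, 1 and 2. Labelled *Rasa1*-KO had 33.7, 38.7 and 29.8, *Nf2*-KO 34.7, 28.4 and 26.2 and labelled double-KO 71.2, 67.4 and 66.6. Control 0 lay within labelled *Rasa1*-KO, and the log2 fold change was -1.15 ± 0.25 (adjusted p = 0.0033) in *Nf2*-KO and -0.96 ± 0.25 (0.0099) in labelled *Rasa1*-KO. *Mgat3*, which adds the bisecting GlcNAc, had 202, 223 and 219 CPM in control and rose to 311, 344 and 315 in labelled *Rasa1*-KO (0.59 ± 0.11, adjusted p = 0.0018). *Nf2*-KO had 248, 236 and 223 CPM (0.14 ± 0.11, 0.36). *Mgat1* and *Mgat2*, which start the first branches, and *Mgat4b* were not called against control.

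*Mgat4c* (chr10:101681487-102391851), a homologue of *Mgat4a*, had the largest change of the members in labelled double-KO. It was at 3.98, 7.23 and 7.93 CPM there and at 0.117, 0.599 and 1.17 in control, with 0.942, 1.13 and 0.796 in labelled *Rasa1*-KO and 0.118, 0.251 and 0.232 in *Nf2*-KO. Labelled double-KO was above every other library. The log2 fold change against control was 3.39 ± 0.61 (adjusted p = 0.0077), and it was 4.19 without control 2.

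Galactosyltransferases of the B4GALT family, which add β1,4 galactose, moved in both directions. *B4galt1* (chr4:40804602-40853984), the main lactosamine synthase, had 174, 199 and 224 CPM in control. It was at 113, 122 and 103 in labelled *Rasa1*-KO, at 90.2, 83.4 and 81.2 in *Nf2*-KO and at 253, 226 and 229 in labelled double-KO. These 3 KO groups lay below, further below and above the controls, and the last difference was not called (0.25 ± 0.11, adjusted p = 0.23). *B4galt1* fell, with a log2 fold change of -1.23 ± 0.11 in *Nf2*-KO (6.6e-06) and -0.82 ± 0.11 in labelled *Rasa1*-KO (0.00017). *B4galt4*, *B4galt5* and *B4galt6* also fell in both, with log2 fold changes of -1.16, -0.7 and -1.58 in *Nf2*-KO and -0.73, -0.96 and -1.38 in labelled *Rasa1*-KO. The call of *B4galt4* in the latter was lost without labelled *Rasa1*-KO library 1 (adjusted p = 0.055). *B4galt2* (chr4:117873000-117883519) went the other way, with 10.3, 10.1 and 8.59 CPM in control, 18.7, 21.2 and 20.5 in labelled *Rasa1*-KO, 28.8, 28 and 28.1 in *Nf2*-KO and 12.3, 12.2 and 13.4 in labelled double-KO. No library of 1 group overlapped with another group, and *B4galt2* rose by 1.55 ± 0.11 (adjusted p = 7e-07) in *Nf2*-KO and by 1.06 ± 0.1 (1.6e-05) in labelled *Rasa1*-KO.

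Enzymes that start O-glycans also moved in both directions. Of 12 *Galnt* genes, 6 fell and 2 rose in *Nf2*-KO (66.7% called, against 42.5% of all genes). In labelled *Rasa1*-KO 3 fell and 2 rose (41.7%, the same as the 41.7% of all genes). The falls were between -0.83 and -0.27, with *Galnt4*, *Galnt7* and *Galnt12* called in both groups. *Galnt2*, the *Galnt* gene with the highest level, had 265, 209 and 171 CPM in control against 158, 163 and 170 in *Nf2*-KO, a change of -0.39 ± 0.14 (adjusted p = 0.038) that was lost in 10 of 12 fits without 1 library (0.052 to 0.11), all but those without control 2 or labelled double-KO library 1. *Galnt15* (chr14:32028782-32062204) rose from 0.0637, 0.626 and 0.417 CPM in controls 0, 1 and 2 to 3.35, 3.19 and 3.75 in labelled *Rasa1*-KO and 2.7, 3.06 and 2.53 in *Nf2*-KO. Labelled double-KO was at 0.306, 0.495 and 0.289 CPM. *Galnt15* thus had the largest rise of the enzymes in both, 3.24 ± 0.55 (adjusted p = 0.00072) and 2.93 ± 0.54 (0.0012), and 3.96 and 3.64 without control 1. *Galnt18* (chr7:111471656-111780067) rose in all 3 KO groups, from 13.9, 25 and 18.5 CPM in control to 44.7, 46.5 and 45.1 in labelled *Rasa1*-KO, 58.2, 60.2 and 64 in *Nf2*-KO and 35.1, 35.7 and 35.4 in labelled double-KO. Its log2 fold changes were 1.25 ± 0.17 (0.00015), 1.67 ± 0.17 (1.4e-05) and 0.89 ± 0.17 (adjusted p = 0.0094).

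**Figure D4:**
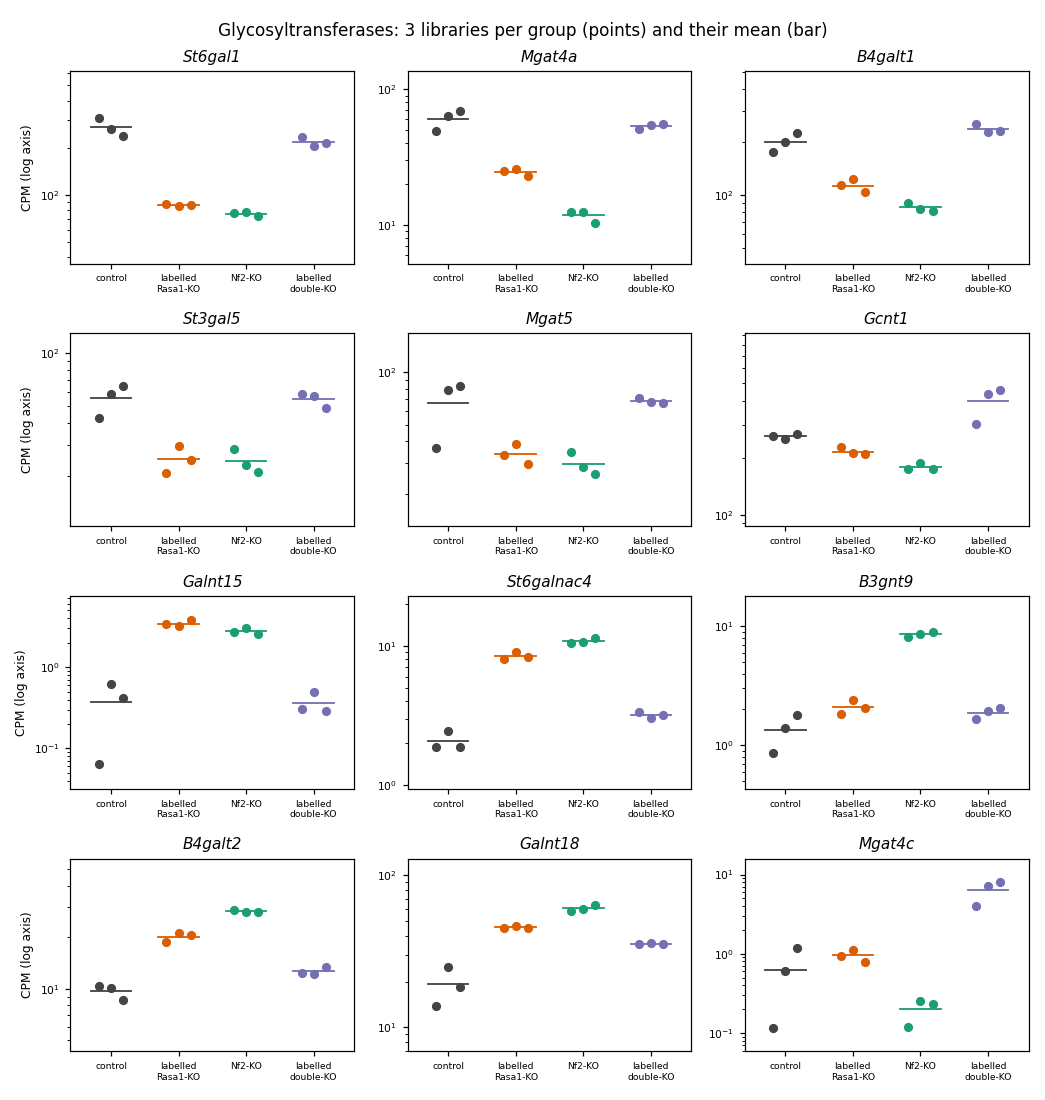
CPM (log axis) of 12 glycosyltransferases in each library (points, in order of library number) with the group mean (bar). *St6gal1*, *Mgat4a*, *B4galt1*, *St3gal5* and *Mgat5* are lower and *Galnt15*, *St6galnac4*, *B4galt2* and *Galnt18* higher in labelled *Rasa1*-KO and *Nf2*-KO, *B3gnt9* reaches 8.14 to 8.97 CPM in *Nf2*-KO, and *Mgat4c* reaches 3.98 to 7.93 CPM in labelled double-KO.

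Branching, extending and fucosylating enzymes had calls in both directions. *Gcnt1* (chr19:17326141-17372844) had 263, 253 and 268 CPM in control, 228, 213 and 209 in labelled *Rasa1*-KO, 174, 189 and 175 in *Nf2*-KO and 303, 438 and 459 in labelled double-KO. It fell in *Nf2*-KO (-0.54 ± 0.14, adjusted p = 0.0083) and rose in labelled double-KO (0.61 ± 0.14, 0.023), with no overlap between any of the groups. The rise was lost without control 1 (0.064), labelled double-KO library 2 (0.11) or 3 (0.095). *B3gnt9* (chr8:105252638-105255250), a β1,3-GlcNAc-transferase, was at 8.14, 8.54 and 8.97 CPM in *Nf2*-KO, against 0.861, 1.39 and 1.79 in control, 1.83, 2.42 and 2.05 in labelled *Rasa1*-KO and 1.66, 1.94 and 2.04 in labelled double-KO. Its rise was 2.68 ± 0.25 (adjusted p = 6.6e-06) in *Nf2*-KO and 0.66 ± 0.24 (0.044) in labelled *Rasa1*-KO. The second was lost in 9 of 12 fits without 1 library (adjusted p = 0.057 to 0.14), all but those without control 2 and labelled double-KO libraries 1 and 3, and was 0.42 without control 0. *B3gnt3*, which extends core 1 chains, was at 92.7 to 117 CPM in control and at 121 to 154 in all KO libraries, with adjusted p of 0.0076, 0.041 and 0.015 in labelled *Rasa1*-KO, *Nf2*-KO and labelled double-KO. The call in *Nf2*-KO was lost in 9 of 12 fits without 1 library (0.054 to 0.14), all but those without control 0, control 1 or labelled double-KO library 1, and that in labelled double-KO without its library 2 (0.078) or 3 (0.075). *Fut8*, which adds the core fucose of N-glycans and led its family, fell, with a log2 fold change of -0.99 ± 0.14 in *Nf2*-KO (adjusted p = 0.00014) and -0.54 ± 0.13 in labelled *Rasa1*-KO (0.0079). *Fut1*, which makes the H antigen, had 3 to 7 reads per control library against 8 to 31 in labelled *Rasa1*-KO (adjusted p = 0.038) and 12 to 36 in *Nf2*-KO (0.023). Its change moved from 1.93 to 2.63 and from 2.15 to 2.84 without control 2, and both calls were lost without control 1 (0.13 and 0.088). The first was also lost without control 0, labelled *Rasa1*-KO library 1 or 2, *Nf2*-KO library 2 or labelled double-KO library 2, and the second without *Nf2*-KO library 1 or 2.

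In the libraries labelled double-KO the 9 members called against control were *Muc5ac*, *Mgat4c*, *Galnt18*, *St6galnac4*, *Gcnt1*, *B3gnt3*, *Mgat3*, *B4galt2* and *St3gal4*. *B3gnt3* rose by 0.5 ± 0.1, *Mgat3* by 0.48 ± 0.11 (352, 273 and 272 CPM, adjusted p = 0.03) and *B4galt2* by 0.39 ± 0.1 (0.049). The call of *B4galt2* was lost in 11 of 12 fits without 1 library, all but that without control 0, and that of *Mgat3* in 8, all but those without control 0, control 2, labelled *Rasa1*-KO library 1 or *Nf2*-KO library 1. The count depended on single libraries. It was 20 without control 0, 5 without control 1 and 2 without labelled double-KO library 2 or 3. When edgeR was fitted to these 2 groups alone it was 0 (background 0.0567% of all genes), with 10 of 57 members at an unadjusted p under 0.05, and DESeq2 on all libraries called 11. The count was 24 without both libraries that lay apart (29.8% of all genes). Shares of all genes are not given here for the fits without 1 library, the unadjusted p or DESeq2. Those counts thus say nothing on the members as a set.

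To set the libraries labelled double-KO against those labelled *Rasa1*-KO, both groups were compared directly. In the former, 19 members were higher (background 16.1%) and 7 lower (13.9%). The median over members was 0.19, and 0 over all genes. Mucins that were higher were *Muc5ac* (2.03 ± 0.42, adjusted p = 0.004), *Muc5b* (2.73 ± 0.57, 0.0045), *Muc1* (1.58 ± 0.28, 0.0015) and *Muc13* (1.9 ± 0.44, 0.0077), whereas *Muc4* (2.92 ± 1.06) was not called (0.057). Without both libraries that lay apart, 28 members were higher and 11 lower (50.2% of all genes called), all 6 mucins were higher, *Muc4* was at 3.45 ± 0.17 (adjusted p = 9.9e-09) and *Muc2* at 2.08 ± 0.31 (0.00014). Of the enzymes, 15 were higher and 7 lower, with *Galnt15* (-3.24 ± 0.54, adjusted p = 0.0011), *St6galnac4* (-1.4 ± 0.14, 3.2e-05) and *Fut1* (-2.09 ± 0.66, 0.034) among those that were lower, the last on 4 to 7 reads per library labelled double-KO. The call of *Fut1* was lost without labelled *Rasa1*-KO library 1 or 2 or any 1 of the libraries labelled double-KO (adjusted p = 0.056 to 0.11), and that of *Galnt2* (0.52 ± 0.14, 0.015) without labelled *Rasa1*-KO library 0 or 2 or labelled double-KO library 1 (0.051 to 0.052).

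Labelled *Rasa1*-KO and *Nf2*-KO were compared to see where the 2 groups with low *Nf2* mRNA differed in these genes. Here 1 member was higher in labelled *Rasa1*-KO (background 1.9%), *Mgat4a* (1.06 ± 0.13, adjusted p = 0.0015), and 2 were lower (1.72%), *B3gnt9* (-2.02 ± 0.24, 0.0011) and *B4galt2* (-0.49 ± 0.1, 0.023). All 6 mucins had a log2 fold change above 0 in this comparison, between 0.49 and 1.63, and none was called. At an unadjusted p under 0.05 there were 2 of 6, and DESeq2 called 2. Without both libraries that lay apart 3 of 6 were called, *Muc13* (1.62 ± 0.11, adjusted p = 1.7e-06), *Muc1* (0.95 ± 0.13, 0.00031) and *Muc4* (1.36 ± 0.2, 0.00041). The member count depended on the fit. It was 27 with only these 2 groups (26.6% of all genes), 16 by DESeq2 (8.31%), 16 without control 0, 10 without control 2, 6 without labelled double-KO library 1, and 24 without both libraries that lay apart (19.3%). For the fits without 1 library the share of all genes is not given here. *B4galt2* lost its call in each of the 6 fits that left out a library of either group, with adjusted p from 0.074 to 0.13.

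Genes around the members were described from lists of the pathway, whose counts stand against 20.4% of all genes that rose and 22.1% that fell in *Nf2*-KO, 19.6% and 22.1% in labelled *Rasa1*-KO, and 3.98% and 2.42% in labelled double-KO. Of 19 tested enzymes of core O-glycans and sulfation outside the rule, 2 rose and 7 fell in *Nf2*-KO, 3 rose and 5 fell in labelled *Rasa1*-KO, and 2 fell in labelled double-KO. *Chst1*, a keratan sulfate sulfotransferase, rose (3.12 ± 0.63 in *Nf2*-KO and 2.84 in labelled *Rasa1*-KO). *B4galnt2*, which makes the Sda antigen, fell, at -2.5 ± 0.27 in *Nf2*-KO, -1.18 in labelled *Rasa1*-KO and -1.02 in labelled double-KO. *Chst4* (-2.97 ± 0.47) and *B4galnt3* (-2.6 ± 0.65) fell in *Nf2*-KO at mean control levels of 1.58 and 0.788 CPM, and *Chst2* rose in labelled *Rasa1*-KO (2.06). *C1galt1*, the core 1 synthase, fell, with a log2 fold change of -0.92 ± 0.09 in *Nf2*-KO and -0.38 in labelled *Rasa1*-KO. Of 26 genes of nucleotide sugar synthesis and transport, 5 rose (19.2%) and 6 fell (23.1%) in *Nf2*-KO, close to the shares of all genes, 5 rose and 8 fell (30.8%) in labelled *Rasa1*-KO, and 1 rose in labelled double-KO. *Gfpt2*, of the hexosamine pathway, was the one called at over 4-fold, at -2.99 ± 0.54 and -2.73 from a control level of 1.18 CPM.

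Of 22 tested regulators and secretory helpers of mucous cells, 1 rose and 12 fell in *Nf2*-KO, with a median of -0.78, and 2 rose and 9 fell in labelled *Rasa1*-KO, with a median of -0.65. *Fcgbp*, a protein secreted with mucins, fell from a mean of 35.4 CPM in control to 0.208 in *Nf2*-KO (-7.4 ± 0.62, adjusted p = 3.6e-06) and 0.582 in labelled *Rasa1*-KO (-5.92, 1.5e-05). *Creb3l1* (-2.36 and -2.95), *Foxa3* (-2.49 and -1.89) and *Sytl2*, a secretory vesicle protein (-2.57 and -1.87), also fell in *Nf2*-KO and labelled *Rasa1*-KO, and *Clca1* fell in *Nf2*-KO (-2.18, adjusted p = 0.043). *Agr2*, which helps to fold mucins in the endoplasmic reticulum, rose in labelled *Rasa1*-KO (2.14, adjusted p = 0.019) to a mean of 0.869 CPM. *Cdx2*, an intestinal regulator, was higher in both, at 50.5 and 52.2 CPM against 15.9 in control. In labelled double-KO, edgeR called 0 of the 22, with 2 at an unadjusted p under 0.05, DESeq2 called 0, and edgeR called 9 without both libraries that lay apart (29.8% of all genes).

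Markers of the cell types moved with these groups. The lists reuse *Fcgbp*, *Clca1*, *Spdef* and *Vsig1* from the regulators and helpers above. They also hold the members *Muc5ac*, *Tff1*, *Tff2*, *Muc2* and *Tff3*, so they are not separate evidence on these genes. The 5 epithelial markers summed to 3690 to 6450 CPM in control, 7220 to 7560 in labelled *Rasa1*-KO, 4920 to 5460 in *Nf2*-KO and 6260 to 7300 in labelled double-KO. *Cdh1* and *Epcam* fell in *Nf2*-KO (log2 fold changes of -2.09 and -2.63) and in labelled *Rasa1*-KO (-1.57 and -1.55), and *Epcam* also in labelled double-KO (-0.84, adjusted p = 0.018). The keratins *Krt8*, *Krt18* and *Krt19* rose in labelled *Rasa1*-KO (0.64, 0.83 and 0.7) and were at 0.19, 0.18 and 0.11 in *Nf2*-KO without a call, and *Krt19* rose in labelled double-KO (0.72, adjusted p = 0.019). All 4 fibroblast markers were measured, and their sum was 571 to 661 CPM in *Nf2*-KO, 144 to 186 in labelled *Rasa1*-KO, 33.2 to 104 in control and 18.2 to 25.4 in labelled double-KO. *Col1a1*, *Col1a2* and *Pdgfra* rose in the first 2 of these groups and *Dcn* fell. The 3 leukocyte markers summed to 6.6 to 10.2 CPM in control and to at most 23.9 in the KO libraries, and the 2 endothelial markers to at most 1.53 in any library. The 4 tested markers of stomach pit cells, mostly *Vsig1*, summed to 163 to 220 CPM in control, 88.1 to 99.2 in labelled *Rasa1*-KO, 60.9 to 67 in *Nf2*-KO and 195 to 222 in labelled double-KO. The list was split in labelled *Rasa1*-KO, where *Vsig1* (-1.11) and *Muc5ac* (-3.97) fell and *Anxa10* (1.54, adjusted p = 0.0063) and *Tff1* (2.25, 0.018) rose. *Anxa10* was not called in *Nf2*-KO (-0.13) and rose in labelled double-KO (2.54, adjusted p = 0.0027). In the order of the pit cell sums, the 5 goblet cell markers, in control mostly *Fcgbp*, summed to 26.6 to 45.2, 1.76 to 3.2, 0.924 to 1.29 and 5.78 to 31.5 CPM. The 3 genes listed for neck cells, mostly *Cd44*, summed to 264 to 668, 166 to 207, 171 to 224 and 372 to 423 CPM. The study uses *Aqp5* and *Cd44* as stem cell markers, and *Tff2* had a mean of 0.474 CPM in control. This sum is thus not a measure of neck cells. *Cd44* fell in labelled *Rasa1*-KO (-1.6) and *Nf2*-KO (-1.48), and *Tff2* was not called. *Aqp5* went the other way, from a mean of 2.43 CPM in control to 30.7 in labelled *Rasa1*-KO (3.65, adjusted p = 1.9e-06) and 22.5 in *Nf2*-KO (3.2, 2.8e-06). The 2 chief cell markers, few in reads, summed to 0.552 to 1.5, 2.35 to 2.88, 7.71 to 8.16 and 0.95 to 1 CPM, with *Gper1* called as higher in labelled *Rasa1*-KO (1.77) and *Nf2*-KO (3.42). The 2 parietal cell markers summed to 17.4 to 25.8, 13.6 to 14.1, 4.99 to 5.47 and 14.2 to 18.1 CPM. *Gkn1*, *Pgc*, *Atp4b* and the 4 endocrine markers were not analysed here. The part of other cell types in the results on mucins was not tested.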

How the data were processed

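RNA-seq of 12 libraries was deposited as raw counts per gene and as FPKM, both made by the authors. Per the labels and the study's methods, reads were trimmed with Trimmomatic 0.38, aligned to mm10 with HISAT2 2.1.0 and assembled and quantified with StringTie 2.1.3b, with SAMtools 1.9 also named. Use of strand in counting is not given in the sources used here. The deposited counts were tested with edgeR 4.0.16 (TMM, filterByExpr, robust quasi-likelihood) in 1 fit over 12 libraries, adjusted by Benjamini-Hochberg over 18053 genes. A gene was called at an adjusted p under 0.05. CPM are counts scaled to the TMM-normalized library size, without a prior count, and error terms are SE for log2 fold changes and SD for levels. The deposited FPKM served for levels between genes and, with pseudocounts of 1 and 0.1, for limma 3.58.1 as an alternative. DESeq2 1.42.0 was another. TPM and log-scale columns of the tables were not used.

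Named were all mucins and trefoil factors, the 3 enzymes of highest control FPKM and, per comparison with control, up to 6 enzymes that rose and up to 6 that fell most among those called with more than 3 counts in each library of a group. List genes were named at an adjusted p under 0.05 and a fold of at least 4. Others were named after their values were seen, to complete a family or list. Members, lists and alternatives were chosen with earlier results of these data known. Promoters came from RefSeq. The fitting code was tested on simulated data. Overlapping and near-identical genes could share reads. Analyses ran in R 4.3.3 and Python 3.11.15.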

Additional observations from a re-analysis of the deposited data

How the results depend on the processing

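The 80 called values of named genes were refitted under 21 other settings. Of the 1676 refitted values, 1512 kept their direction and side of the threshold, 164 kept the direction but were no longer called, and 0 turned. The cause of the differences below was not tested. Members called against control numbered 20 instead of 31 in labelled *Rasa1*-KO when edgeR was fitted to those 2 groups alone. By the rule of the study on edgeR values they numbered 10 there (9.26% of all genes), 13 in *Nf2*-KO (11.4%) and 5 in labelled double-KO (2.02%). In labelled double-KO, 9 became 0 with those groups alone (0.0567% of all genes), 2 with the replicate block and 2 at an adjusted p under 0.01. The count was 24 (29.8% of all genes) without both libraries that lay apart, an alternative chosen after seeing the data. Labelled double-KO against labelled *Rasa1*-KO had 8 by the rule of the study in place of 26, and 1019 of the 18053 genes tested met that rule. Labelled *Rasa1*-KO against *Nf2*-KO had 3, against 16 with DESeq2, 27 with those groups alone, 24 without both libraries and 5 by the rule of the study. Leaving out 1 library at a time gave 25 to 33 members in labelled *Rasa1*-KO, 27 to 39 in *Nf2*-KO, 2 to 20 in labelled double-KO, 23 to 37 in labelled double-KO against labelled *Rasa1*-KO, 2 to 16 in labelled *Rasa1*-KO against *Nf2*-KO and 33 to 49 for any difference. For settings whose share of all genes is not given here or above, the counts say nothing on the members as a set. Libraries with the same number did not deviate together (correlations from -0.379 to 0.399), so the replicate block does not stand for a pairing. The highest correlation between libraries of different groups was 0.626, between control 0 and labelled double-KO library 1, the 2 that lay apart. The block goes by number and does not join these 2, and a batch or pairing shared by them was not tested. The replicate block moved no other count by over 1.5 times. With the block 15 of the 80 values were not called, among them *Muc5b* (2.22, adjusted p = 0.053) and *Muc13* (1.48, 0.08) in labelled double-KO against labelled *Rasa1*-KO. Members with few reads, such as *Fut1* and *Tff3*, limit what this depth can show.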
